A study of Mus musculus with 2 samples.

Results

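The Tle3 peaks described here are those whose midpoints lie in a pair of windows on chromosome 3, named for the genes Mecom and Skil, both known as repressors of TGF-beta signalling. The windows were chosen by position in the deposited peak list, with its peaks and scores in view. The window for Mecom runs from chr3:29800000-30460000 and that for Skil from chr3:30940000-31050000, both in mouse build mm9. They held 3 of the 5136 peaks in the list and of the 224 on chromosome 3. The Mecom window held 1 peak and the Skil window 2. Number and position made the choice, and width and score come from the same calls, so all values below are a description and carry no test.

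The list comes from chromatin immunoprecipitation and sequencing (ChIP-seq), which recovers the DNA that an antibody pulls down with a protein. An anti-Tle3 library was set against a control library, 1 of each, from wild-type C57BL/6 mice of 8 to 10 weeks. The chromatin came from bone marrow cells without lineage markers and with cKit, a mix of stem and progenitor cells. The control is labelled both normal IgG and input, and the cells are called hematopoietic progenitors in some fields and T cells in others; a peak list holds no expression values against which to check them. The labels do not state how many animals gave the cells or whether they were pooled. Without replicates, no difference between peaks could be set against a spread between animals, and the read depth of both libraries is unknown.

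TGF-beta ligands signal through cell-surface receptor kinases to SMAD proteins, which enter the nucleus and regulate genes with other factors, and in bone marrow this pathway restrains the cycling of stem cells. Skil encodes SnoN, which binds SMAD proteins and brings corepressors to their target genes. Mecom encodes the zinc-finger proteins EVI1 and MDS1-EVI1 (PRDM3), which bind SMAD3 and the corepressor CtBP; Mecom is needed for the maintenance of blood stem cells. Tle3 is a Groucho-family corepressor without a DNA-binding domain, and RUNX, TCF/LEF and HES proteins are among the factors that bring such corepressors to DNA.

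The Skil window held the highest scoring and the widest Tle3 peak of chromosome 3, as the peaks were listed. It lay at chr3:30992522-30994659, was 2138 bp wide and scored 680.09. The score is the one given by the authors' peak caller, MACS. It is 10 times the negative log10 of a p-value against local background, starts at 50 in this list and is not a count of reads. In the whole list the peak ranked 5th by score and 14th by width. The next score on chromosome 3 was 365.87, at chr3:121948232-121949089, and the next width was 1681 bp, at chr3:21974765-21976445. The Skil peak thus scored 1.86 times as high as the next peak of the chromosome and 10.0 times the median of 67.84 over the 221 chromosome 3 peaks outside both windows. It was 3.30 times as wide as their median of 648 bp (quartiles 528 and 830 bp).

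The other peak of the Skil window was ordinary in both measures. It lay 32069 bp from the high-scoring one, toward lower coordinates, at chr3:30959705-30960452, was 748 bp wide and scored 65.66. Of the 221 outside peaks, 43.9% scored lower and 63.3% were narrower. Peaks of its width, within 50 bp either way, numbered 784 in the whole list, with a median score of 78.82. The scores of both peaks in the Skil window thus lay 10.4-fold apart, on either side of the chromosome's median in score but both above it in width.

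The Mecom window, the longer of the pair at 660 kb, held a single peak of common width and moderate score. It lay at chr3:30406951-30407612, was 662 bp wide and scored 87.03. Of the outside peaks, 68.3% scored lower and 50.7% were narrower. Among the 886 peaks in the list within 50 bp of its width, the median score was 69.8, and 79.5% scored lower than the Mecom peak. Coordinates run opposite to the transcription of Mecom. The peak was near the higher-coordinate edge of the window, 52388 bp from it, and the 607 kb of the window at lower coordinates held no peak. The Mecom peak therefore ranked 72nd by score and 112th by width on chromosome 3, against first place in both for the peak in the Skil window.

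**Figure D1:**
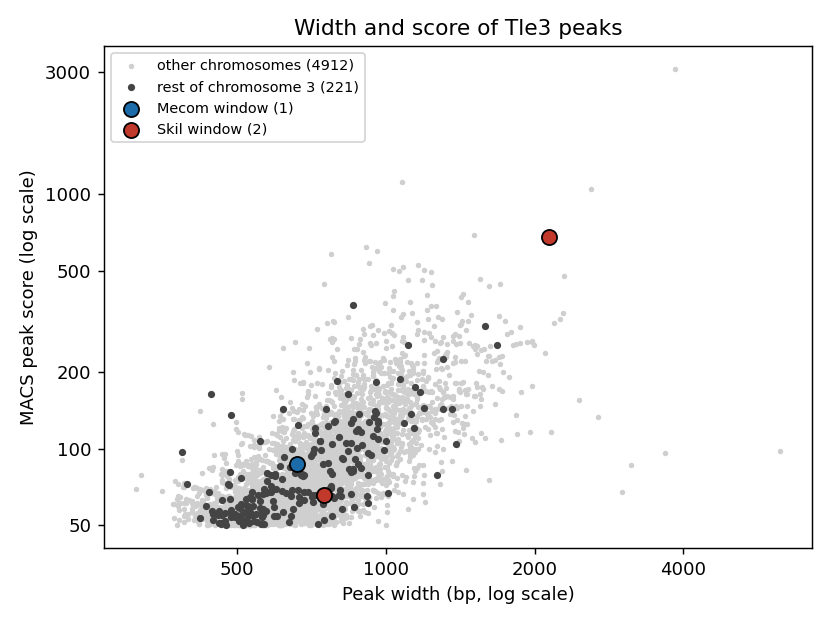
Width (bp, log scale) against MACS score (log scale) for each of the 5136 Tle3 peaks; dark points are the 221 peaks of chromosome 3 outside both windows, and large points the 3 peaks in them. The peak of 2138 bp and 680.09 in the Skil window is above and to the right of every other point of chromosome 3, while the Mecom peak and the second Skil peak lie inside the cloud.

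Of the 3 peaks, 1 scored at least 100, and 24.9% of the outside peaks of chromosome 3 did so. The same peak was the only one of the 3 wider than 1000 bp, which 7.69% of the outside peaks were. Because the choice of the windows used these peaks, nothing is read from either count.

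Among the widest and the highest scoring peaks of the list, high score and large width tended to go together. How far this held over the whole list was not measured. Of the 15 peaks in the list at least 2000 bp wide, 11 scored 100 or more, against 24.9% of the outside peaks of chromosome 3. The median score of the 15 was 237. The Skil peak was the only one of the 15 on chromosome 3, and 2 of the 15 scored higher, on chromosomes 17 and 7. Among the 26 peaks scoring at least 400, the median width was 1189 bp, 3 were wider than the Skil peak, and no other lay on chromosome 3. For all peaks of the autosomes other than chromosome 3, the median score was 68.955 and the median width 658 bp.

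The Skil peaks lay nearer to each other than the median spacing of chromosome 3, and the Mecom peak lay farther from its neighbours. The peaks in the Skil window lay 32.1 kb apart, which made each the nearest neighbour of the other. The nearest neighbour of the Mecom peak was 284 kb away, toward higher coordinates. Over the outside peaks of chromosome 3, the median distance to the nearest peak was 84.4 kb, with quartiles of 20.2 and 237 kb. The spacing of the Skil peaks was thus between the quartiles of the chromosome, and the Mecom peak was more isolated than the upper quartile. None of the 3 had another peak within 10 kb, against 15.4% of the outside peaks, and 2 of 3 had one within 50 kb, against 35.3%. Among the 26 peaks scoring at least 400, 14 had a nearer neighbour than the Skil peak, and their median distance was 26.8 kb.

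The peaks of both windows and of the interval between them formed 1 stretch bounded by long empty intervals. Between the windows, over 480 kb, lay 2 further peaks. The one nearer to Mecom, at chr3:30691815-30692601, was 787 bp wide and scored 127.34, above 87.3% of the outside peaks. The other, at chr3:30894279-30895055, was 777 bp wide and scored 65.23. This was the peak just outside the lower-coordinate edge of the Skil window. From the Mecom peak onward, successive gaps measured 284, 202, 64.6 and 32.1 kb, and the last ended at the 680.09 peak. Each gap was shorter than the one before it. This order was noted after the gaps were seen and was not compared with other runs of peaks. The gap before the Mecom peak was 1.70 Mb, and the gap after the high-scoring Skil peak was 1.27 Mb. The peaks on the far sides of these, at chr3:28704160-28704667 and chr3:32264489-32264921, scored 54.73 and 59.57. They were 508 and 433 bp wide.

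**Figure D2:**
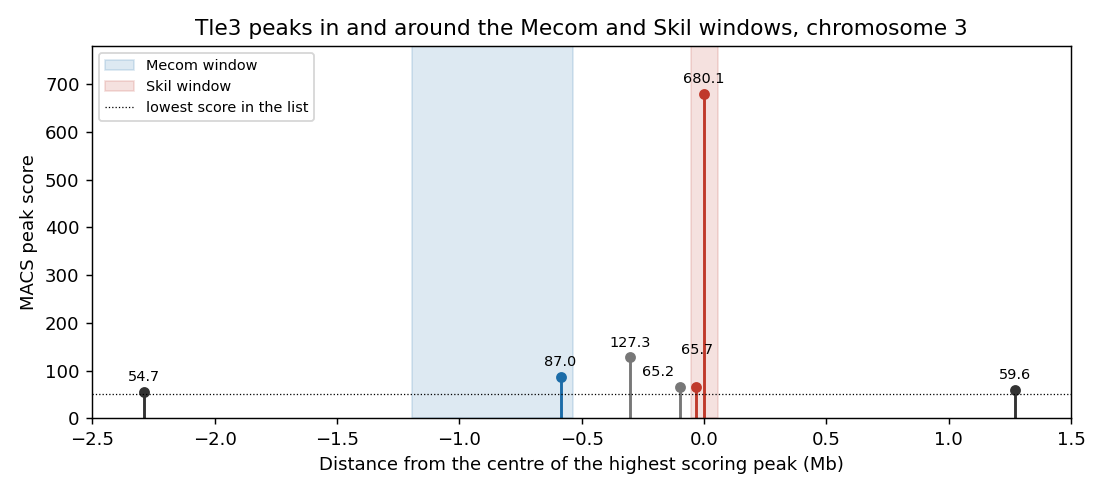
MACS score of each Tle3 peak against its distance in Mb from the centre of the highest scoring one; shading marks both windows and the dotted line the lowest score of the list, 50. The 5 peaks between the Mecom peak (87.03) and the Skil peak (680.09), ends included, are flanked by empty intervals of 1.70 and 1.27 Mb.

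Chromosome 3 had 223 gaps between adjacent peaks, with a median of 199.97 kb and quartiles of 63.4 and 525 kb. The gap before the Mecom peak ranked 20th in length and the gap after the Skil peak 31st. Gaps longer than 1 Mb numbered 41 and divided the chromosome into 42 stretches, a division made after the spacing was seen. The median stretch held 4 peaks, and 18 stretches held 5 or more. The stretch from Mecom to Skil had 5 peaks in 588 kb, or 8.51 per Mb, and 2 of the other stretches with 5 or more peaks were shorter. Its length is close to the distance of 586 kb between the midpoints of the Mecom peak and the high-scoring Skil peak, since these are its ends. Stretches with 5 or more peaks had from 3.31 to 21.6 peaks per Mb. Each stretch begins and ends on a peak and leaves out its flanking gaps, so these densities are not comparable with that of the whole chromosome.

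**Figure D3:**
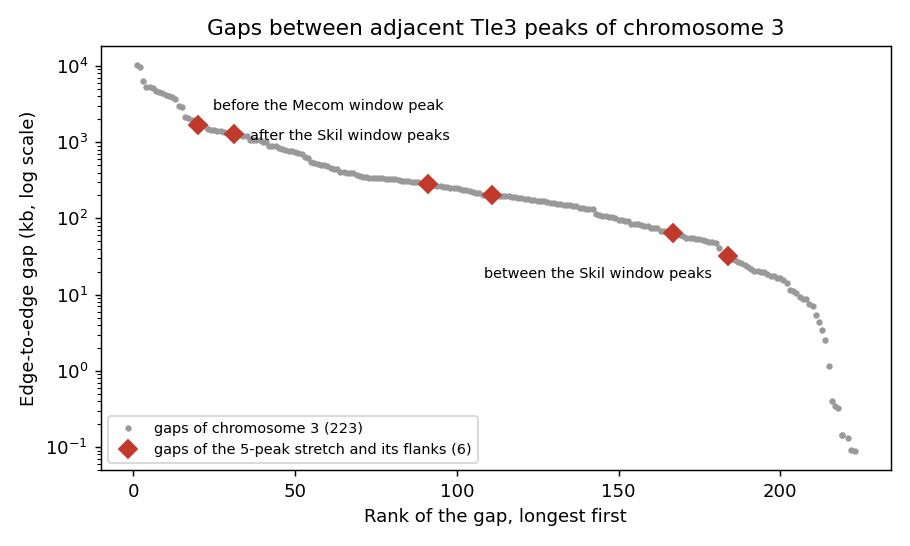
Edge-to-edge gaps (kb, log scale) between adjacent Tle3 peaks of chromosome 3, ranked from the longest; diamonds are the 6 gaps of the stretch from Mecom to Skil and its flanks. The gaps of 1.70 and 1.27 Mb on its flanks are among the 41 longer than 1 Mb, and the gap of 32.1 kb between the Skil peaks is the shortest of the 6.

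Peak density was higher in the Skil window than in the Mecom window, but both rest on so few peaks that their intervals overlap. The Mecom window had 1.52 peaks per Mb (95% exact Poisson interval 0.0384 to 8.44, counting error only), and chromosome 3 outside both windows had 1.46 (1.28 to 1.67). The ratio was 1.04, with an exact interval of 0.0261 to 5.83, and the density of the rest of the chromosome gives 0.966 peaks in a window of this length, against 1 found. The Skil window had 18.2 peaks per Mb (2.20 to 65.7), a ratio of 12.4 (1.49 to 45.4), where that density gives 0.161 peaks. This window was chosen with its peaks in view. Without the high-scoring peak its density was 9.09 per Mb and rested on 1 peak. The interval between the windows had 4.17 peaks per Mb (0.505 to 15.1). The other autosomes as a whole had 2.20 (2.14 to 2.26).

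The windows also differed in how much of their length was covered. Peaks covered 0.1003% of the Mecom window and 2.62% of the Skil window, against 0.103% of chromosome 3 outside both. Of the 2886 bp covered in the Skil window, 2138 bp belonged to the high-scoring peak.

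When chromosome 3 was divided into back-to-back tiles of 660 kb, the length of the Mecom window, 41.9% of 229 tiles held at least 1 peak and 56 held more than 1. In tiles of 110 kb, the length of the Skil window, 2.90% of 1379 tiles held at least 2 peaks, and 9 held more than 2. The fullest tiles held 9 and 4 peaks. A count of 1 in the Mecom window was therefore common for its length, while 40 tiles of the length of the Skil window held 2 or more peaks.

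**Figure D4:**
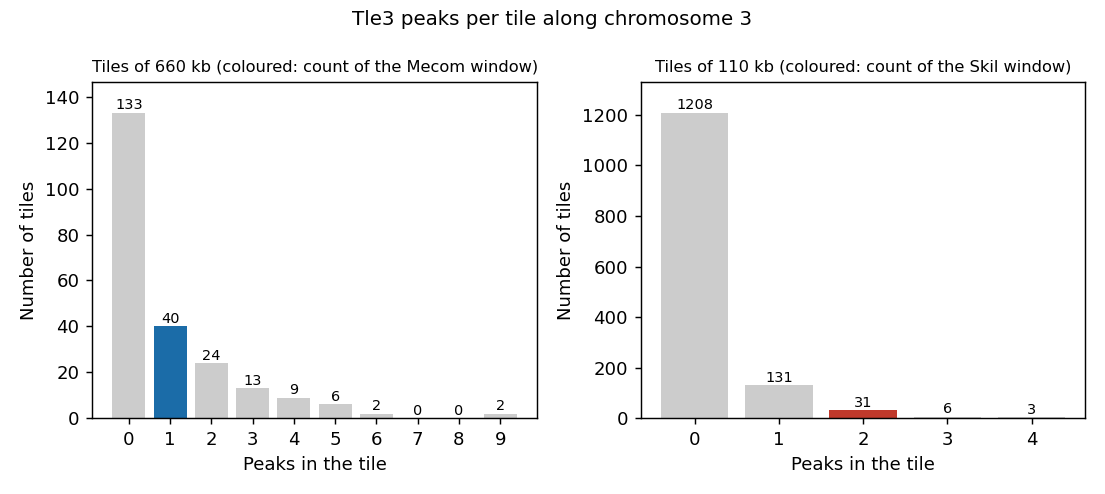
Number of chromosome 3 tiles by the number of Tle3 peaks they hold, for tiles of 660 kb (left) and 110 kb (right), with the bar at the count of the Mecom window (1) and of the Skil window (2) coloured. Most tiles are empty, 133 of 229 and 1208 of 1379; 40 of the longer tiles hold 1 peak and 31 of the shorter ones hold 2.

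In the wider surroundings the 3 peaks had about as many neighbours as others of the chromosome. Within 500 kb of its midpoint the Mecom peak had 2 other peaks, and each Skil peak had 3. The median of the outside peaks was 3. Within 1 Mb each of the 3 had 4 others, the same as that median and below the median of 8 on the other autosomes. The 26 peaks scoring at least 400 had a median of 4 others within 500 kb.

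Whether a peak lay in a promoter, exon or intron was not determined, because the gene table at hand is that of another build, GRCm38.p6. Its gene order alone was used. Between Mecom and Skil it places 10 protein-coding genes: Actrt3, Mynn, Lrrc34, Lrriq4, Lrrc31, Samd7, Sec62, Gpr160, Phc3 and Prkci. Phc3 encodes a Polycomb protein, Sec62 a part of the protein translocation machinery of the endoplasmic reticulum, and Prkci an atypical protein kinase C. Egfem1 is the next gene on the outer side of Mecom and Cldn11, a claudin of tight junctions, on that of Skil. A peak named here by a window is not thereby assigned to Mecom or Skil rather than to a neighbour.

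Promoter sequences of Mecom are shown because Tle3 reaches DNA through other factors, and their binding letters can be read in them. The RefSeq promoter table (GRCm38.p6) matched 1 of the 2 genes, Mecom, with 2 transcription starts on the minus strand. The protein MDS1-EVI1 is made from transcripts of the outer start, and EVI1 from those of starts further inside the gene. Skil had no entry. The 250 bases before each start are given 5′ to 3′ on the strand of the gene, with matches to any of 7 motifs in capitals; whether a Tle3 peak covers them was not tested.
Mecom outer start: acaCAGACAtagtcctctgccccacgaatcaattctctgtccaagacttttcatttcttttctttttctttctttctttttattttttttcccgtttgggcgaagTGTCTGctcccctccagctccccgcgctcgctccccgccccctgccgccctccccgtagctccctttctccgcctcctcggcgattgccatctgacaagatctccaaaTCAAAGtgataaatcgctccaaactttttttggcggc
Mecom inner start: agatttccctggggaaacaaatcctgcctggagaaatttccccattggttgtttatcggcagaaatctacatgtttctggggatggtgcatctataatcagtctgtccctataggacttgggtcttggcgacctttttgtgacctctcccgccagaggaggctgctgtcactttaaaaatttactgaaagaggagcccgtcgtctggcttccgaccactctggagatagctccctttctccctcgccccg

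The outer Mecom start carried letters of TCF/LEF and SMAD motifs, and the inner start carried no match to the 7 motifs. The motifs, searched on both strands in 300 bases (250 before and 50 after each start), were TGTGGT for RUNX, CTTTGA for TCF/LEF, CACGTG for the E-box, CACNAG for HES, CAGACA for SMAD, AGATAA for GATA and CCGGAA for ETS. No matches overlapped. At the outer start, CAGACA occurred once on each strand, with matches beginning 247 and 145 bases before the start, and CTTTGA occurred on the opposite strand, beginning 37 bases before it. Of all 32851 promoters in the table, 21.0% held CAGACA and 16.0% CTTTGA, so neither is rare. The other motifs were held by 16.8% (RUNX), 7.15% (E-box), 42.5% (HES), 11.2% (GATA) and 14.9% (ETS) of promoters. The outer and inner sequences had GC contents of 50.8% and 50.4%, and the median promoter had 52.4%.

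Across a list of 30 genes of TGF-beta signalling (ligands, receptors, SMAD proteins, their inhibitors, repressors and corepressors), 23 had promoters in the table, 34 in all. The RUNX letters were in 1 of the 34, or 2.94%, against 16.8% of all promoters. Those of TCF/LEF were in 5 (14.7%, against 16.0%), those of HES in 10 (29.4%, against 42.5%) and those of SMAD in 7 (20.6%, against 21.0%). The E-box was in 3 (8.82%, against 7.15%), the GATA letters in 2 (5.88%, against 11.2%) and the ETS letters in 6 (17.6%, against 14.9%). Several starts of 1 gene count separately, and these shares were not tested. Tgif1, a repressor that binds SMAD proteins, had 5 starts, of which 4 held the HES letters, 4 of the 10 promoters of the list that did, and 2 the SMAD letters. Ski and Prdm16, the relatives of Skil and Mecom, had 1 start each, without a match to any of the 7. The same was true of Bmpr1a, Ctbp1, Smad1, Smad3, Smad6, Tgfb1 and Tgfbr2, so it was common in the list. These matches describe sequence alone, and no Tle3 peak was assigned to any gene of the list.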

How the data were processed

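Tle3 binding was measured by ChIP-seq in 1 Tle3 library and 1 control library. Reads were processed with Bowtie2 and MACS 1.4 on mouse build mm9, per the submitters' processing notes. Settings and read filters: not given in the sources used here. What the authors deposited is 1 peak list with a score per peak, computed by the authors' caller; per the labels' protocols, 18 to 21 PCR cycles preceded sequencing. A score of 50, the lowest in the list, corresponds to a p-value of 1e-05.

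Starts were converted to positions counted from 1. A peak belonged to a window if its midpoint lay in it, and gaps were measured from edge to edge. Before and after, for peaks and gaps, mean lower and higher coordinates, whatever the strand of a gene. Chromosome lengths were taken as the span from first to last peak. Poisson, binomial and conditional density-ratio intervals were exact, at 95%, and cover counting error only. No test was made, and the windows, lists and motifs were chosen with earlier results of these data known. By rule, all peaks of the windows are given, with those next to their edges and the highest scoring one of the rest of chromosome 3. The widest one of the rest, the second peak between the windows and the pathway genes named by promoter were chosen after seeing their values. So was the pair of close peaks named under merging. The counting was tested on simulated data. Peaks near the genes of the pathway list, and protein motifs, were planned but not analysed here, since no mm9 annotation and no protein table were used. Python 3.11.15, numpy 2.4.6, pandas 2.3.3 and SciPy 1.17.1 were used.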

Additional observations from a re-analysis of the deposited data

How the results depend on the processing

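Of 39 alternative values, 34 stayed within the counting interval of the value as listed or, for medians, within the range of the window's peaks, which for 1 or 2 peaks says little. With a minimum score of 100, the Mecom window held 0 peaks, giving a density of 0 and a ratio of 0 to the rest of chromosome 3, while the Skil window kept 1 peak, with a ratio of 24.96; the nearest neighbour of that peak then lay 299920 bp away instead of 32069 bp. Without the high-scoring Skil peak, a setting added after the data were seen, the nearest neighbour of the remaining one was 64649 bp away, and the density ratio of the window was 6.21 instead of 12.4. Lengthening the Skil window by 50 kb on each side raised its count to 3 peaks, lowered the median score from 373 to 65.66 and the median width from 1443 to 777 bp, and gave a ratio of 9.79. Shortening it by 20 kb raised the ratio to 19.5. Against the other autosomes the ratios were 8.27 for Skil and 0.689 for Mecom. The share of outside peaks with a neighbour was 15.4% at 10 kb and 35.3% at 50 kb. Merging peaks within 1 kb, or counting any overlap with a window, changed no count in either window. Among the regions joined by merging was chr3:58218169-58220746, from a pair of peaks 143 bp apart. This region was wider than the high-scoring Skil peak, whose first place in width on chromosome 3 thus held only for unmerged peaks. Moving the starting point of the tiles, also added later, gave 40.2% of the longer and 2.68% of the shorter tiles. Without the 50 bases after the start, the matches at Mecom were the same. No paired analysis was possible because the design has no replicates. Depth is unknown, so how many weaker sites in the windows fell under a score of 50 cannot be given.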
